A study of Mus musculus with 13 samples.

Results

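Microglia of the spinal cord were compared between mice that lack Il33 and their wild-type (WT) littermates, across all genes that these cells measurably transcribe. The cells were sorted for CD11b, a surface integrin chain of microglia and other myeloid cells, from C57BL/6 mice at postnatal day 12. There were 3 libraries from IL-33 KO mice and 3 from IL-33 WT mice, 6 of the 13 libraries of the study, and the other 7 were astrocytes sorted for Aldh1l1-GFP. The astrocytes, used here for comparison only, came from 4 IL-33 KO and 3 IL-33 WT samples, of which 1 of each genotype was taken at postnatal day 9 and the others at day 12. The knockout (KO) allele is that of Pichery and colleagues, which is carried by every cell of the animal and not by microglia alone. Genes were taken where their mean level over the 6 libraries was at least 1 FPKM (fragments per kilobase of transcript scaled to the mapped fragments of the library, a level per transcript length and depth). That held for 15889 of the 39171 genes listed, and Il33 was added, giving 15890 genes tested. The libraries of a genotype are biological replicates, and p-values measure the spread between these 3 and 3 libraries. Whether animals were pooled is not given in the sources used here.

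Interleukin-33 (IL-33) belongs to the IL-1 family of cytokines, is stored in the nucleus and is released to act on neighbouring cells. Its receptor is ST2, the product of Il1rl1, which pairs with the accessory chain Il1rap. The paired receptor recruits Myd88 and the Irak kinases, and these activate NF-kB and the MAP kinases, which drive transcription of chemokines, cytokines and their own feedback inhibitors. In the developing cord the cytokine comes mainly from astrocytes, and microglia, the resident macrophages that engulf synapses and dying cells there, carry the receptor. CD11b-sorted cells can also include macrophages of the vessels and meninges, monocytes and neutrophils.

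Depth could be read only from the steps between the lowest values, and ran from 74.2% to 100% of that of KO library 2. This estimate is rough, since each ratio rested on only 31 to 84 of the 3740 to 4787 genes compared. Of the summed FPKM, 34.7% to 42.9% fell on small RNA genes. The most abundant identifier, ENSMUSG00000089855, held 32.5%, 31.5% and 28.5% in the KO libraries and 28.2%, 23.7% and 11.6% in the WT libraries. The correlation of log2(FPKM + 1) over all tested genes was 0.829 to 0.874 between KO libraries and 0.731 to 0.784 between WT libraries, lowest between WT libraries 1 and 3. Pairs of a KO and a WT library gave 0.760 to 0.811, so WT libraries were no closer to each other than to KO libraries. The 12 microglia markers, among them Cx3cr1, P2ry12 and Tmem119, summed to 8451 to 9169 FPKM in KO and 8331 to 8941 in WT, which matched the labelled cell type. WT libraries 1 and 2 stood apart in Xist, the RNA that silences an X chromosome, with 268 and 283 FPKM against values below 1 in the other 4 libraries. Transcripts of the Y chromosome were nevertheless present in both, for example Eif2s3y at 16.5 and 14.4 FPKM against 51.0 in WT library 3 and 43.9 to 45.3 in KO. The sex of the animals is not given in the sources used here. High Xist was seen only in WT libraries, so differences that go with sex and with genotype cannot be fully told apart. Several results are given again with Xist as a covariate, a fit that compares the KO libraries mainly with WT library 3.

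The targeted gene could not check the labels here, because Il33 was near 0 in microglia of both genotypes. Il33 stood at 0.136, 0.00739 and 0 FPKM in the KO libraries and at 0.299, 0 and 1.26 in the WT libraries. Its receptor was present, with Il1rl1 at 11.98, 7.49 and 2.93 FPKM in the KO libraries and 6.95, 9.20 and 5.08 in the WT libraries, and these ranges overlapped. The difference of Il1rl1 on the log2(FPKM + 1) scale, on which all differences here are given as KO minus WT, was −0.06 (SE 0.48; limma Benjamini-Hochberg adjusted p = 0.979). Il1rap lay higher in every KO library than in any WT library, at 3.67, 3.21 and 2.71 FPKM in the KO libraries and 1.98, 1.78 and 1.99 in the WT libraries (adjusted p = 0.595 in limma). Of the 20 tested genes of the receptor, its adaptors and its kinases, none passed the threshold of an adjusted p under 0.05. At an unadjusted p under 0.05 there was 1 higher, Tollip, and 0 lower. Tollip, which encodes an inhibitor of Irak kinases, stood at 11.7 ± 2.05 FPKM in KO and 7.28 ± 1.61 in WT (SD, n = 3 each). Tab1, which encodes an activator of the kinase downstream of Traf6, stood at 4.08, 3.21 and 4.04 FPKM in KO and 0.614, 3.59 and 0.652 in WT, where WT library 2 lay within the KO range. The list had a median difference of 0.04, beside 0.02 over all tested genes.

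Over all 15890 genes, 13 passed the threshold (0.0818%), 9 higher in KO (0.0566%) and 4 lower (0.0252%). They were 11 small RNA genes and the protein-coding genes Nfkbia and Filip1l, and so 2 of 11609 protein-coding genes passed (0.0172%). Without a correction for multiple testing, 1264 genes had a p under 0.05 (7.95%), of which 682 were higher (4.29%) and 582 lower (3.66%). Over all genes this number was 2952 with Xist as a covariate, 1991 without WT library 1 and 678 without KO library 2. List counts from those fits therefore have another background. Levels of all 3 KO libraries lay above all 3 WT libraries for 1336 genes (8.41%) and below them for 1189 (7.48%). Medians of several lists lay so close to 0 that leaving out 1 library changed their sign, among them the receptor, Toll-like receptor, MHC, complement, heat-shock and lysosome lists. The shares above are the background for the gene lists that follow, in which a member is called higher-lying or lower-lying where its KO and WT libraries did not overlap. In such bulk libraries, fewer cells of a type and less RNA per cell cannot be told apart.

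**Figure D1:**
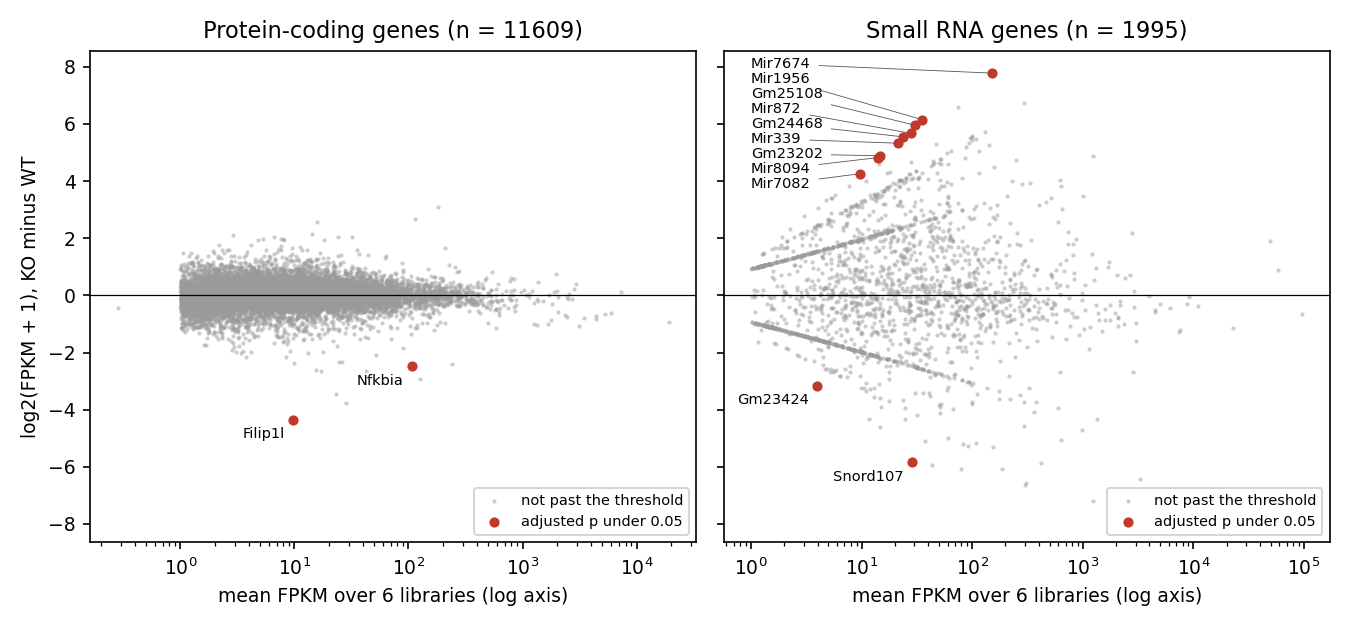
Difference between KO and WT microglia on the log2(FPKM + 1) scale (vertical) against the mean FPKM over the 6 libraries (horizontal, log axis), 1 point per gene, for 11609 protein-coding genes and 1995 small RNA genes. Red points are the 13 genes past an adjusted p of 0.05; the small RNA genes spread more widely, with a median size of the difference of 1.29 against 0.25 for protein-coding genes.

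Of the 2 protein-coding genes that passed, Filip1l had the smaller adjusted p (0.00203 in limma) and is described further below. The other was Nfkbia, which encodes the inhibitor IkBa. IkBa holds NF-kB in the cytoplasm, and NF-kB induces the Nfkbia gene in turn, so that its message is often used as a readout of recent NF-kB activity. Nfkbia (chr12:55489410-55492647, minus strand, GRCm38) stood at 31.8, 27.3 and 36.5 FPKM in the KO libraries and 163, 167 and 220.3 in the WT libraries. All 3 KO libraries lay below the lowest WT library, a 5.75-fold difference of the means. Nfkbia fell by 2.48 on the log2 scale (SE 0.19, limma adjusted p = 0.0236). With a KO library left out the adjusted p missed the threshold for library 1 (0.0507) and library 2 (0.0696), and with a WT library left out for library 1 (0.0648) and library 2 (0.0782), while the difference stayed between −2.34 and −2.58. The adjusted p also missed the threshold with no filter on low values (0.0547) and with a replicate block (0.229), and over all alternatives it ran from 0.0106, with Xist as a covariate, to 0.229. The astrocytes of the study held 17.5 ± 0.820 FPKM in KO astrocytes (SD, n = 4) and 30.4 ± 12.2 in WT astrocytes (SD, n = 3). The effect in microglia minus that in astrocytes was −1.75 (SE 0.31, limma adjusted p = 0.110), which did not pass.

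The stretch before the start of Nfkbia is shown because this gene carries the protein-coding change in the NF-kB pathway, and NF-kB is known to bind there. The sequence is RefSeq's for GRCm38.p6, the 250 bases before the annotated start (chr12:55492648-55492897, minus strand), written 5′ to 3′. Capitals mark the match to the NF-kB (kB) consensus motif, searched on both strands, which begins 29 bases before the start.
Nfkbia: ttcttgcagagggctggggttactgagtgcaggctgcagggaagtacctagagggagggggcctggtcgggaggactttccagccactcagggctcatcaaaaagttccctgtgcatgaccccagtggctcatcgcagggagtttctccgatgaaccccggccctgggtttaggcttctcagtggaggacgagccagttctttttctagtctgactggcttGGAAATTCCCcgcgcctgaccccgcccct
The kB motif was found in this window in 3.75% of the promoters of 27025 genes, and in 4.27% of 9176 tested protein-coding genes. It was found in 5 of 11 NF-kB feedback genes, 4 of 10 chemokine genes, 3 of 15 cytokine genes and 4 of 23 immediate-early genes with a RefSeq promoter. None of 11 genes of MAP kinase phosphatases and message decay held it. A match is a description of letters and does not show a bound site. Nfkbiz and Cd83, which are described with these genes, were not in the promoter table.

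Further stretches around matches are shown for genes whose KO and WT libraries did not overlap, so that the likeness between the chemokine genes Cxcl1 and Cxcl2 and the difference in spacing in Tnfaip3 and Cxcl10 can be seen. Capitals mark the match, or 2 or 3 overlapping matches where the run is longer than 10 letters. Tnip1 and Ier3 were chosen after their values were seen.
Tnfaip3 (chr10:19015411-19015555, minus strand): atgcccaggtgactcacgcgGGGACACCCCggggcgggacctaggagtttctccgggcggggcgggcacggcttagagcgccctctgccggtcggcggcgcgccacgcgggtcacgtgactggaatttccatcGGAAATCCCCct
Cxcl1 (chr5:90891154-90891204, plus strand): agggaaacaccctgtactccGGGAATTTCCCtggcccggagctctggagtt
Cxcl2 (chr5:90903782-90903832, plus strand): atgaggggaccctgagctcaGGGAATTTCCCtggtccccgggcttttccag
Cxcl10 (chr5:92348963-92349068, minus strand): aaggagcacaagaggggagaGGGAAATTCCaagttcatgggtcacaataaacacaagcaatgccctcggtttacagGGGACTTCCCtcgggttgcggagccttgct
Csf1 (chr3:107760594-107760643, minus strand): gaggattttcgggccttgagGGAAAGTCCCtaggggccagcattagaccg
Ier3 (chr17:35821601-35821650, plus strand): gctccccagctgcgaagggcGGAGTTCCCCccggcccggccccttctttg
Tnip1 (chr11:54962967-54963018, minus strand): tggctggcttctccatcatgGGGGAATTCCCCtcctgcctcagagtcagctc
In 7 of these 8 genes, counting Nfkbia, all KO libraries lay below all WT libraries, and in Tnip1 all lay above. They were drawn from lists whose non-overlapping members lay mostly lower, so this count does not tie the motif to the lower levels. Among members wholly below WT with a RefSeq promoter, the motif was found in 2 of 2 feedback, 3 of 5 chemokine, 1 of 5 cytokine and 1 of 10 immediate-early genes. Tnf, Il1a, Il1b, Gdf15, Junb, Jun and Gadd45b, which also lay lower in all KO libraries, held no match to the kB motif in their 250 bases. The same was true of Ccl12, Cx3cl1, Jund, Ier5, Maff, Btg1, Btg2 and Gadd45g, which lay lower too. Tnip2 and Klf4, which lay higher in all KO libraries, held no match either. Il1a, Il1b, Jun, Klf4 and the genes from Ccl12 to Gadd45g were chosen after their values were seen. The AP-1 motif TGANTCA was found in the windows of Tnfaip3, Cxcl10 and Il1a, and in 6.87% of all promoters.

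Among the genes of NF-kB itself, its kinases and their Traf adaptors, 12 were tested, and 0 were higher or lower at an unadjusted p under 0.05, with a median difference of 0.06. Ikbkg, which encodes the scaffold of the IkB kinase and overlaps G6pdx on the other strand, lay slightly higher in KO, at 7.05 ± 0.848 FPKM in KO and 5.36 ± 0.639 in WT (SD, n = 3 each). Of the 14 tested inhibitors and feedback genes, 4 were lower and 2 higher at an unadjusted p under 0.05, with a median of −0.11, and only Nfkbia passed over all genes. Tnfaip3, which encodes the ubiquitin-editing inhibitor A20, stood at 20.6, 17.4 and 25.8 FPKM in the KO libraries and 74.3, 44.1 and 64.9 in the WT libraries. Nfkbiz, which encodes a nuclear IkB protein that selects secondary targets, stood at 29.8, 26.0 and 30.8 FPKM in the KO libraries and 63.9, 53.3 and 70.1 in the WT libraries. In both the lowest WT library was well above the highest KO library, with limma adjusted p-values of 0.331 and 0.281. Cd83, a surface marker of activated myeloid cells, stood at 66.0 ± 12.5 FPKM in KO and 139.7 ± 17.0 in WT (SD, n = 3 each). The opposite order was seen for Tnip1 and Tnip2, which encode A20-binding proteins. Tnip1 stood at 7.11 ± 0.673 FPKM in KO and 3.56 ± 0.478 in WT (SD, n = 3 each) and Tnip2 at 20.4 ± 3.99 FPKM in KO and 12.9 ± 3.09 in WT (SD, n = 3 each). Cd83, Tnip1 and Tnip2 were chosen after their values were seen. With 1 library left out, 4 to 6 members of the list were lower and 1 to 3 higher.

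Of 16 tested chemokine genes, 4 were lower and 0 higher at an unadjusted p under 0.05, 5 lay wholly below WT, and the median was −0.49. Cxcl2, which attracts neutrophils, stood at 5.44, 8.57 and 5.61 FPKM in the KO libraries and 38.3, 27.6 and 21.4 in the WT libraries. Cxcl10, which attracts T cells and overlaps Art3 on the other strand so that its value is uncertain, stood at 15.2, 14.7 and 30.6 FPKM in the KO libraries and 93.0, 79.3 and 78.5 in the WT libraries. WT means were 4.45 and 4.15 times the KO means, and the adjusted p-values in limma were 0.208 and 0.238. Without KO library 3, the highest KO library for Cxcl10, that gene passed (difference −2.41, adjusted p = 0.0340). Cxcl1 was near the detection floor in KO, at 0.372, 1.35 and 0.529 FPKM, and stood at 6.17, 6.00 and 1.39 in WT, where library 3 was only just above the KO libraries. With 1 library left out, 2 to 5 chemokine genes were lower.

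Cytokine and growth factor genes lay lower as well, 6 of 20 tested at an unadjusted p under 0.05 against 0 higher, with a median of −0.29. With Xist as a covariate the median was 0.08, with 5 lower and 2 higher. Tnf, the prototype inflammatory cytokine, stood at 19.8, 20.4 and 27.2 FPKM in the KO libraries and 91.8, 43.0 and 65.0 in the WT libraries (adjusted p = 0.441 in limma). Csf1, a growth factor on which microglia depend, was very even in KO, at 25.1, 25.1 and 24.5 FPKM, against 40.4, 40.2 and 58.7 in WT. Gdf15, a stress-induced cytokine of the TGF-beta family, stood at 1.297, 4.51 and 5.07 FPKM in the KO libraries and 10.1, 11.6 and 15.4 in the WT libraries. The groups did not overlap in any of these 3 genes, and none passed over all genes.

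Survival and death genes had 4 lower and 1 higher of 23 tested, with a median of −0.11. Birc3, which encodes an inhibitor of apoptosis, stood at 27.9 ± 4.71 FPKM in KO and 59.0 ± 15.9 in WT (SD, n = 3 each). Casp1, the protease that processes IL-1 family cytokines, stood at 12.4, 11.3 and 13.6 FPKM in the KO libraries and 22.8, 17.9 and 20.6 in the WT libraries, without overlap (limma adjusted p = 0.519). Bcl2a1b, a short-lived survival factor with near-identical paralogs that makes its value uncertain, stood at 21.1 ± 2.46 FPKM in KO and 33.1 ± 3.13 in WT (SD, n = 3 each).

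**Figure D2:**
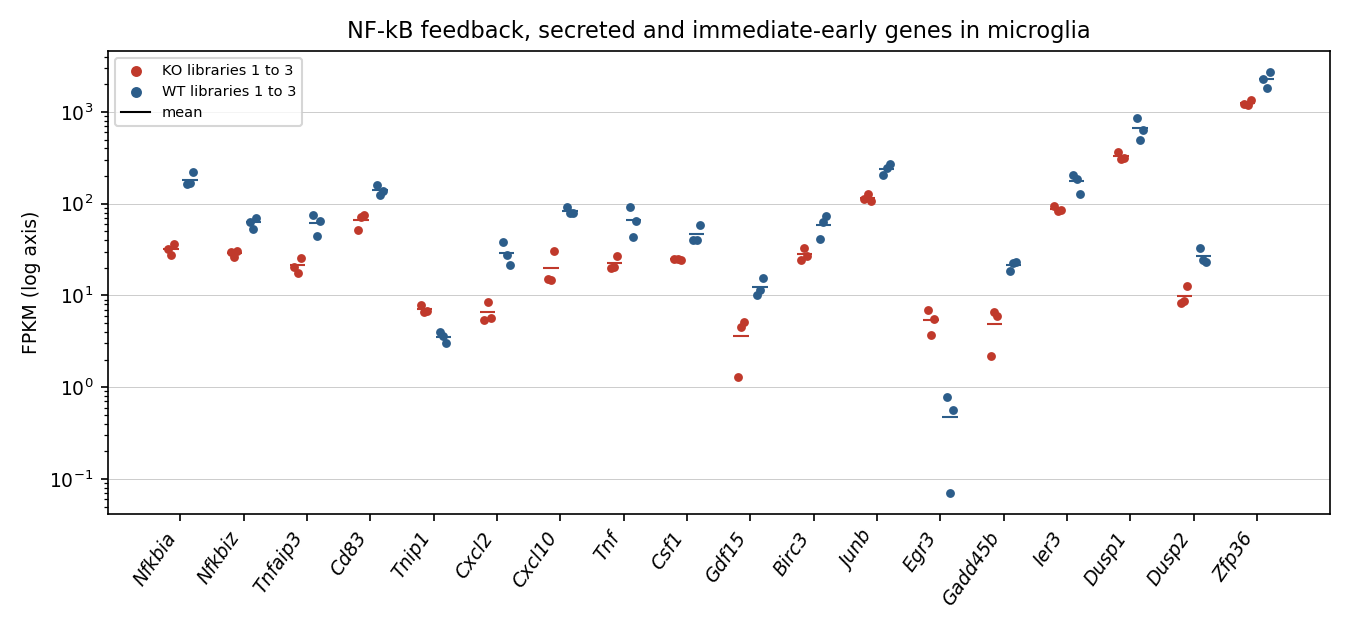
FPKM (log axis) of 18 inducible genes in each KO library (red points) and WT library (blue points), with horizontal bars at the mean of each genotype. KO points lie below WT points in every gene except Tnip1 and Egr3, where they lie above; only Nfkbia passed an adjusted p of 0.05.

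Immediate-early genes, which are switched on within minutes of stimulation and also during tissue dissociation, lay lower in the same libraries. Of 27 tested AP-1, EGR, Gadd45, Ier, Btg and Klf genes, 9 were lower and 1 higher at an unadjusted p under 0.05, 12 lay wholly below WT and 2 wholly above, and the median was −0.47. It was −0.33 after quantile normalisation, and 5 to 7 members were lower with 1 library left out. Junb, an AP-1 subunit that overlaps Prdx2 on the other strand, stood at 111, 127 and 106 FPKM in the KO libraries and 204, 243 and 269 in the WT libraries. Gadd45b, a stress sensor of the p38 pathway, stood at 2.18, 6.54 and 5.99 FPKM in the KO libraries and 18.6, 22.3 and 23.1 in the WT libraries. Their adjusted p-values in limma were 0.293 and 0.358. Egr3, a zinc finger factor, went the other way and stood at 6.87, 3.66 and 5.47 FPKM in the KO libraries and 0.787, 0.0702 and 0.564 in the WT libraries, with a KO mean 11.3 times the WT mean (adjusted p = 0.299). Its KO libraries were all above 3 FPKM and its WT libraries all below 1.

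Of 12 tested MAP kinase phosphatases and message decay factors, 4 were lower and 0 higher, with a median of −0.10, and in these 4 members the genotypes did not overlap. Dusp2 stood at 8.33, 8.77 and 12.8 FPKM in the KO libraries and 32.6, 24.3 and 23.2 in the WT libraries. Zfp36, whose product degrades messages of Tnf and other cytokines and whose locus is shared with the antisense gene Gm44710, stood at 1208, 1199 and 1347 FPKM in the KO libraries and 2309, 1825 and 2737 in the WT libraries. Dusp1, which overlaps Ergic1 on the other strand, stood at 329 ± 32.1 FPKM in KO and 662 ± 191 in WT (SD, n = 3 each). Their limma adjusted p-values were 0.331, 0.490 and 0.516, and the number of lower members was 4 with any 1 library left out. Heat-shock chaperones, which dissociation also induces, had 1 higher and 1 lower of 16 tested and a median of 0.00. Of the 16, 4 lay wholly above and 1 wholly below WT, beside 8.41% and 7.48% over all genes. Hsp90aa1 stood at 133, 152 and 147 FPKM in the KO libraries and 118, 88.1 and 80.7 in the WT libraries and Dnajb4 at 18.1 ± 3.56 FPKM in KO and 29.6 ± 7.78 in WT (SD, n = 3 each). The part of tissue dissociation in these differences was not tested.

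Genes of microglial function showed few differences. For engulfment receptors and machinery, 0 of 26 tested were higher or lower at an unadjusted p under 0.05 (median 0.14), and with WT library 1 left out 3 were higher. Itgb5, an integrin chain that reads the eat-me bridge Mfge8, stood at 322, 327 and 299 FPKM in the KO libraries and 271, 260.0 and 199 in the WT libraries, and Stab1, a scavenger receptor that overlaps Nt5dc2, at 485 ± 44.1 FPKM in KO and 763 ± 276 in WT (SD, n = 3 each). For complement, 0 of 17 tested were higher or lower (median −0.13), and 3 lay wholly below WT. Cfb, a protease of the alternative pathway, stood at 2.42 ± 1.08 FPKM in KO and 4.16 ± 0.491 in WT (SD, n = 3 each) and C5ar1, a receptor for the fragment C5a, at 35.1 ± 7.39 FPKM in KO and 47.1 ± 10.5 in WT (SD, n = 3 each). For Toll-like receptors and their adaptors, 0 of 21 were higher or lower (median 0.06), with Tlr9, the sensor of unmethylated DNA, at 59.6, 61.7 and 55.3 FPKM in the KO libraries and 51.2, 43.7 and 30.5 in the WT libraries.

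Among TREM2 and Fc receptor genes, 1 of 21 tested was higher and 0 lower (median 0.10). That gene was Inpp5d, whose product SHIP1 restrains signalling below these receptors, at 131, 174 and 138 FPKM in the KO libraries and 99.8, 110.4 and 89.1 in the WT libraries (adjusted p = 0.553 in limma). Its 3 KO libraries were all above the WT libraries, and so were those of Fcgr1, the high-affinity Fc receptor, at 64.5 ± 2.59 FPKM in KO and 53.3 ± 3.32 in WT (SD, n = 3 each). Homeostatic microglia genes had 1 higher and 0 lower of 31 tested, with a median of 0.17. With Xist as a covariate 11 were higher, in a fit where the number over all genes also rose, from 1264 to 2952. The higher gene, P2rx4, an ATP-gated channel, stood at 33.5, 32.9 and 28.1 FPKM in the KO libraries and 25.6, 22.8 and 19.3 in the WT libraries. Adgrg1, an adhesion receptor of resident microglia, stood at 139 ± 7.77 FPKM in KO and 105 ± 17.9 in WT (SD, n = 3 each), and Sall1, the transcription factor that sets microglial identity, at 152 ± 6.73 FPKM in KO and 122 ± 18.5 in WT (SD, n = 3 each). Of 20 axon-tract and disease-associated microglia genes 1 was lower, Csf1, and 0 were higher, with a median of 0.05.

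Lysosome genes had 3 higher and 0 lower of 44 tested, with a median of 0.10. Ctsa, a protective carboxypeptidase, stood at 659, 831 and 591 FPKM in the KO libraries and 464, 435 and 292 in the WT libraries. Pltp, a phospholipid transfer protein gene that overlaps Ctsa on the other strand, went the opposite way, at 16.5, 19.8 and 14.3 FPKM in the KO libraries and 44.8, 32.1 and 21.8 in the WT libraries, so each of these values is uncertain. Gaa, the acid alpha-glucosidase gene, stood at 35.8 ± 4.57 FPKM in KO and 21.3 ± 7.42 in WT (SD, n = 3 each) and Npc1, a cholesterol exporter gene that overlaps Rmc1, at 77.3 ± 6.37 FPKM in KO and 54.5 ± 8.83 in WT (SD, n = 3 each). With 1 library left out, 0 to 6 lysosome genes were higher and 0 to 2 lower.

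Of 37 tested autophagy genes, 3 were higher and 0 lower at an unadjusted p under 0.05, and 5 lay wholly above WT. Atg9a, the membrane scramblase that seeds the autophagosome, stood at 6.21, 5.90 and 5.70 FPKM in the KO libraries and 2.62, 2.71 and 3.14 in the WT libraries (difference 0.86, SE 0.18, limma adjusted p = 0.448). Atg9a overlaps Ankzf1 on the other strand and is uncertain for that reason. Ambra1, a scaffold of the initiation complex, stood at 24.4, 23.4 and 20.6 FPKM in the KO libraries and 17.0, 13.1 and 14.7 in the WT libraries, and Atg12, a ubiquitin-like conjugate of the machinery, at 4.95 ± 1.33 FPKM in KO and 2.69 ± 0.356 in WT (SD, n = 3 each). The median of the list, 0.08, was close to that of all genes, and 1 to 3 members were higher with 1 library left out.

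Sterol and fatty acid synthesis genes had a median difference of 0.31, which ran from 0.18 without WT library 3 to 0.39 without WT library 2. Of its 35 members, all of which passed the filter, 5 were higher and 0 lower at an unadjusted p under 0.05, and 8 lay wholly above and 1 wholly below WT. Scap, the escort protein that carries the sterol-sensing factor SREBP to the Golgi, stood at 24.5, 35.3 and 27.8 FPKM in the KO libraries and 8.34, 9.99 and 3.69 in the WT libraries. The KO mean was 3.98 times the WT mean, and the difference was 1.93 (SE 0.36, limma adjusted p = 0.364). Cyp51, a demethylase of sterol synthesis that overlaps Akap9 on the other strand, stood at 21.2, 24.1 and 19.6 FPKM in the KO libraries and 10.4, 12.8 and 4.31 in the WT libraries. In both genes WT library 3 was the lowest of the 6 libraries. With Xist as a covariate Scap passed (2.73, adjusted p = 0.0244), as did Cyp51 (2.16, adjusted p = 0.0261), and 8 members were higher and 1 lower. The number of higher members was 1 without KO library 2, 2 without WT library 3 and 3 to 5 without any other library. Oligodendrocyte transcripts, which include active sterol genes, were also higher in these KO libraries, with 8 of 14 tested markers higher at an unadjusted p under 0.05 and a median of 0.86. Their part in the sterol difference was not tested.

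Other metabolic lists were mixed. Glycolysis had 0 higher and 2 lower of 24 tested (median 0.19). Those were Eno2, the neuronal enolase gene, at 1.296, 2.84 and 1.86 FPKM in the KO libraries and 6.72, 5.44 and 5.43 in the WT libraries, and Hk1, the brain hexokinase gene, which shares its locus with Hk1os, at 3.78, 3.34 and 3.56 FPKM in the KO libraries and 8.59, 10.1 and 5.15 in the WT libraries. In both the highest KO library lay under the lowest WT library (limma adjusted p = 0.469 and 0.549). Summed neuron markers stood at 21.7, 14.7 and 16.7 FPKM in the KO libraries and 66.6, 13.8 and 20.6 in the WT libraries. The part of neurons in the Eno2 difference was not tested. Lipid efflux and uptake had 1 higher and 2 lower of 17 tested, with the liver X receptor gene Nr1h2 at 28.6 ± 1.52 FPKM in KO and 21.7 ± 0.529 in WT (SD, n = 3 each). Glutathione and antioxidant enzymes had 1 higher and 0 lower of 27 tested, with Gstp1 at 7.93 ± 0.930 FPKM in KO and 5.52 ± 0.270 in WT (SD, n = 3 each) and Sod2, a mitochondrial superoxide dismutase gene that NF-kB can induce, at 7.25 ± 1.45 FPKM in KO and 11.7 ± 3.54 in WT (SD, n = 3 each).

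**Figure D3:**
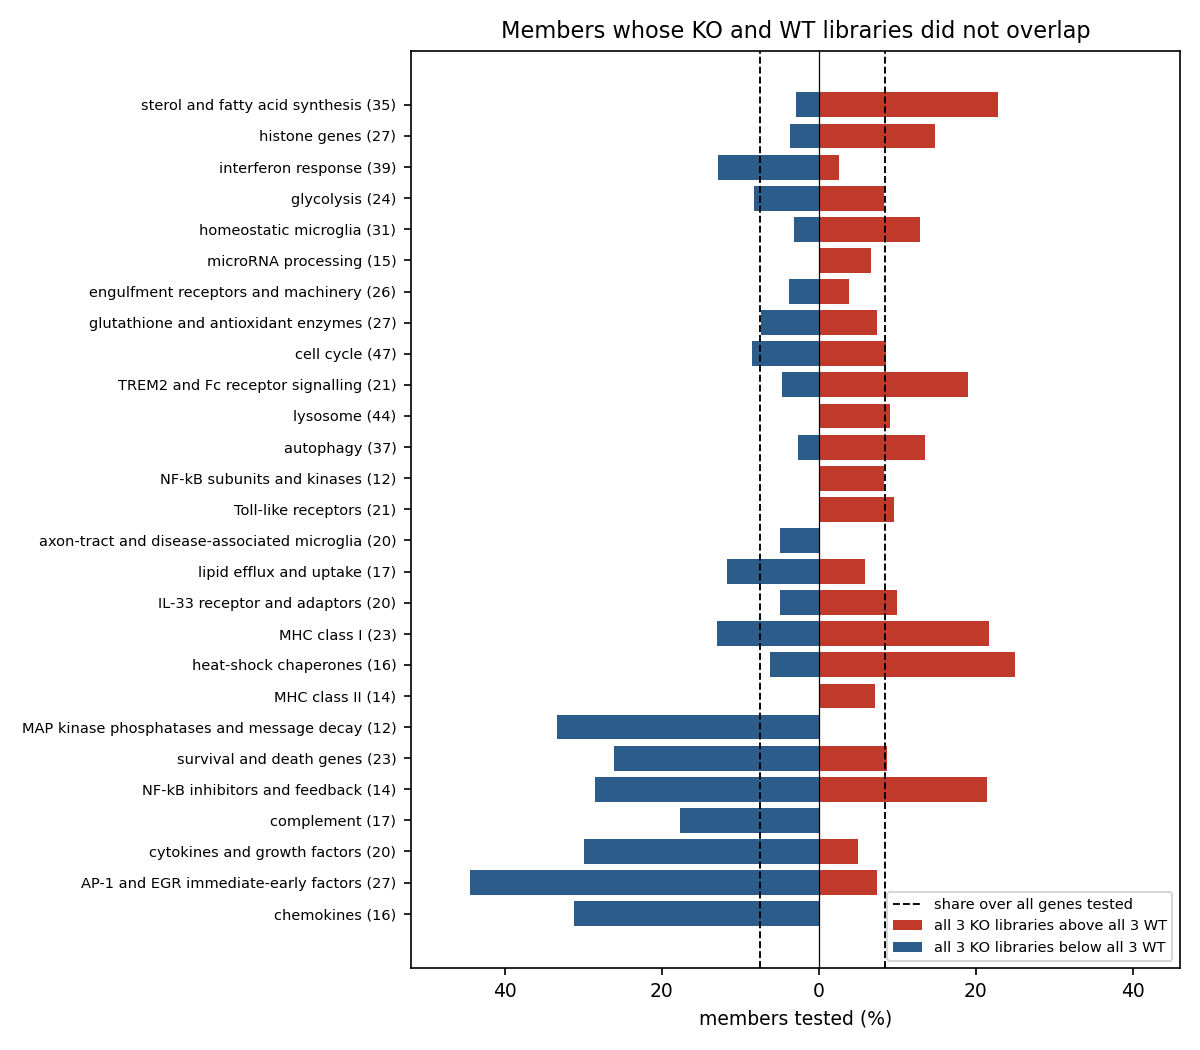
Share of the tested members of each gene list (number tested in brackets) whose 3 KO libraries all lay above (red, right) or below (blue, left) the 3 WT libraries, in percent, for pathway and function lists of at least 10 tested members, ordered by their median difference; lists of cell type markers are not drawn. Dashed lines mark the shares over all genes tested, 8.41% above and 7.48% below. Of the lists drawn, the immediate-early, phosphatase, chemokine, cytokine, feedback and survival lists reach furthest to the left; of the border macrophage markers, 3 of 11 lay wholly below WT, a larger share than that of the survival list (6 of 23).

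Of 23 tested MHC class I genes, 3 were higher and 3 lower at an unadjusted p under 0.05, with a median of 0.03. H2-K1, the classical class I heavy chain, stood at 107, 103 and 128 FPKM in the KO libraries and 202, 181 and 197 in the WT libraries (difference −0.77, SE 0.15, limma adjusted p = 0.385). The non-classical heavy chain gene H2-Q6, which shares reads with near-identical neighbours and is uncertain, stood at 1.01, 1.47 and 1.64 FPKM in the KO libraries and 3.98, 3.29 and 3.56 in the WT libraries. In both the KO and WT libraries did not overlap. MHC class II genes had 1 higher and 0 lower of 14 tested, with a median of −0.05 that became 0.10 after quantile normalisation, and H2-DMa, a peptide exchange chain that overlaps Brd2, stood at 107 ± 15.5 FPKM in KO and 69.3 ± 18.6 in WT (SD, n = 3 each). Of 39 interferon response genes, 1 was higher and 3 lower, with a median of 0.19 that changed sign without WT library 3 (−0.07) or KO library 3 (−0.05) and was 0.33 without WT library 1. Trim30a, a regulator of Toll-like receptor signalling, stood at 48.1 ± 6.13 FPKM in KO and 31.5 ± 3.91 in WT (SD, n = 3 each), and Ifi207, of the DNA-sensing p200 family, at 8.91 ± 0.390 FPKM in KO and 15.8 ± 4.77 in WT (SD, n = 3 each).

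Cell cycle genes had 2 higher and 0 lower of 47 tested (median 0.11), with the spindle factor gene Tpx2 at 7.503, 9.42 and 10.3 FPKM in the KO libraries and 4.77, 5.19 and 6.05 in the WT libraries and Birc5, survivin, at 17.7 ± 3.38 FPKM in KO and 11.9 ± 0.910 in WT (SD, n = 3 each). Of 27 histone genes, 3 were higher and 1 lower (median 0.24). Hist1h2bj stood at 8.64, 9.24 and 6.76 FPKM in the KO libraries and 3.96, 2.77 and 1.299 in the WT libraries and Hist1h4a at 2.00, 2.79 and 2.82 FPKM in KO and 0.720, 0.114 and 0.669 in WT, and the genotypes overlapped in neither gene. Replication-dependent histone messages have no poly(A) tail and near-identical copies, so these values are uncertain. Among 15 microRNA processing genes 0 were higher or lower, and Drosha, the nuclear nuclease that cuts primary microRNAs, stood at 16.8, 14.8 and 20.1 FPKM in the KO libraries and 32.2, 37.4 and 18.1 in the WT libraries with overlapping ranges.

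Outside the lists, the protein-coding genes with the smallest p among those higher in KO had limma adjusted p-values from 0.162 upward and so did not pass. Agtrap, which encodes a binding partner of the type 1 angiotensin receptor, stood at 16.3, 10.04 and 13.7 FPKM in the KO libraries and 3.11, 3.03 and 2.11 in the WT libraries, and its KO mean was 4.85 times the WT mean. The astrocytes showed the same order, with 14.3 ± 5.35 FPKM in KO astrocytes (SD, n = 4) and 3.38 ± 1.24 in WT astrocytes (SD, n = 3), and the test of a difference between the effects in the cell types did not pass (difference 0.14, SE 0.47, limma adjusted p = 0.970). Fbf1, a protein of the base of cilia, stood at 12.04, 9.77 and 14.6 FPKM in the KO libraries and 2.81, 2.57 and 3.58 in the WT libraries. B4galt5, a galactosyltransferase that makes lactosylceramide, was the most even of these genes, at 16.9, 16.8 and 17.6 FPKM in the KO libraries and 7.90, 6.87 and 6.86 in the WT libraries. In all 3 genes the lowest KO library lay above the highest WT library.

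Slc19a1, the reduced folate carrier gene, overlaps Col18a1 on the other strand and stood at 10.5, 12.4 and 11.9 FPKM in the KO libraries and 3.81, 2.02 and 3.71 in the WT libraries. Ebna1bp2, a ribosome biogenesis factor, stood at 13.2, 17.9 and 13.7 FPKM in the KO libraries and 6.08, 6.03 and 5.23 in the WT libraries. Fhit, a diadenosine triphosphate hydrolase gene that spans a fragile site and holds several smaller genes, stood at 8.05, 8.40 and 4.66 FPKM in the KO libraries and 1.09, 1.79 and 1.12 in the WT libraries. The open reading frame 4930404N11Rik, which overlaps Mfsd12 on the other strand, stood at 10.8 ± 2.16 FPKM in KO and 3.13 ± 0.428 in WT (SD, n = 3 each). In all 4 the KO and WT libraries did not overlap, and their adjusted p-values in limma lay between 0.208 and 0.310.

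On the lower side, after Nfkbia and Filip1l, the smallest p belonged to Sap30l, which encodes a subunit of the Sin3A histone deacetylase complex. Sap30l stood at 3.30, 4.67 and 4.17 FPKM in the KO libraries and 12.7, 13.4 and 13.0 in the WT libraries, very even within each genotype (difference −1.49, SE 0.18, limma adjusted p = 0.162). In astrocytes it stood at 15.8 ± 3.77 FPKM in KO astrocytes (SD, n = 4) and 11.97 ± 1.21 in WT astrocytes (SD, n = 3), and the effect in microglia minus that in astrocytes was −1.82 (SE 0.29, adjusted p = 0.0531), just short of the threshold. Ifrd1, an interferon-related developmental regulator that holds Mir1938 and an antisense gene, stood at 69.9, 77.8 and 72.3 FPKM in the KO libraries and 138, 162 and 196 in the WT libraries. With Xist as a covariate Ifrd1 passed (−1.43, limma adjusted p = 0.0484). The other lower genes of this rank were Cxcl2, Cxcl10, Nfkbiz and Junb, described above.

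**Figure D4:**
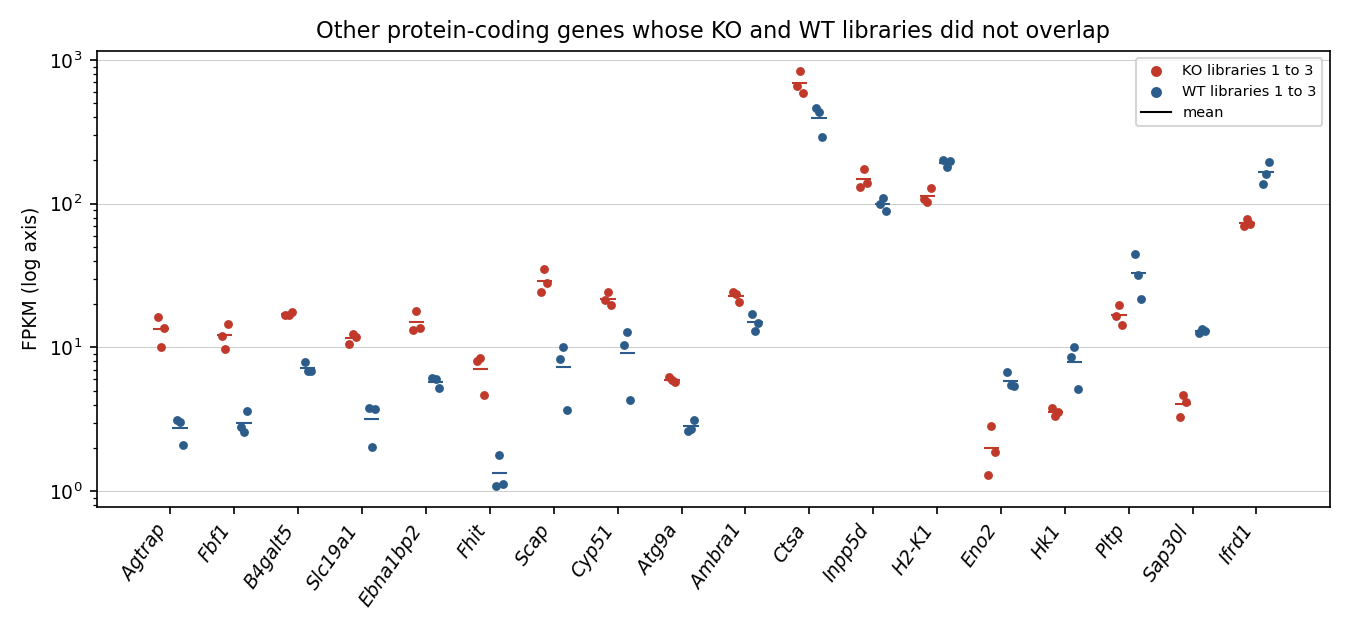
FPKM (log axis) of 18 further protein-coding genes in each KO library (red points) and WT library (blue points), with horizontal bars at the mean of each genotype. The points of the 2 genotypes do not overlap in any of these genes, and none passed an adjusted p of 0.05; KO lies above WT from Agtrap to Inpp5d and below it from H2-K1 to Ifrd1.

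Filip1l (chr16:57353093-57573126, plus strand), which encodes a filamin-interacting protein, was listed at 0 in all 3 KO libraries and at 19.6, 17.2 and 21.7 FPKM in the WT libraries (difference −4.35, SE 0.20, limma adjusted p = 0.00203). It lies within Cmss1 on the other strand, which was also listed at 0 in all KO libraries and stood at 6.39, 0.251 and 0.250 FPKM in WT, so that reads of either may count for the other. In astrocytes Filip1l was at or near 0 in both genotypes, and the effect differed between cell types (−4.44, SE 0.35, adjusted p = 3.84e-04). Only 2 other protein-coding genes were listed at 0 throughout one genotype and above 0 throughout the other. They were Ppara, a lipid-sensing nuclear receptor, at 5.97, 0.0177 and 0.0859 FPKM in KO, where only library 1 was clearly above 0, and 4930524J08Rik at 3.65, 0.558 and 2.09, both listed at 0 in WT and chosen after their values were seen.

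Small RNA genes made up 11 of the 13 calls, 7 of them microRNA genes, 3 small nucleolar RNA genes and 1 small nuclear RNA gene. All 11 span at most 129 bases, and 10 of them were listed at 0 throughout one genotype. Among 1995 small RNA genes, 24 were listed at 0 in all WT libraries and above 0 in all KO libraries, and 6 showed the reverse. In all, 71.4% of small RNA genes were listed at 0 in at least 1 library, against 0.999% of protein-coding genes. Libraries of this kind are not made to capture mature microRNAs, and the values are reads assigned to the locus.

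The mature arms of the 6 named microRNA genes that passed and had a RefSeq entry are shown to compare their seeds, which set the targets of a microRNA. They are given 5′ to 3′ with the seed, bases 2 to 8, in capitals.
mmu-miR-1956: aGUCCAGGgcugagucagcgga
mmu-miR-8094: aACUGAAGgacaacgagaaga
mmu-miR-339-5p: uCCCUGUCcuccaggagcucacg
mmu-miR-339-3p: uGAGCGCCucggcgacagagccg
mmu-miR-872-5p: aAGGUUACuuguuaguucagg
mmu-miR-872-3p: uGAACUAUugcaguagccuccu
mmu-miR-7082-5p: uACGGGCAggaggaggggagg
mmu-miR-7082-3p: gCCCCCCUugcugucugucucc
mmu-miR-7674-5p: uGAGGUGUgggcagcaugaggacu
mmu-miR-7674-3p: uCCCAUUCucaccgcacccag
The 10 arms hold 10 distinct seeds.

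Each of these genes lies inside a longer gene on the same strand, and in no case did the longer gene pass the threshold. Mir1956 rose from 0 in every WT library to 60.4, 69.9 and 81.4 FPKM in KO (difference 6.15, SE 0.18, limma adjusted p = 2.78e-04). Its host Eif4e, the cap-binding factor of translation, stood at 9.10 ± 0.870 and 8.98 ± 1.90 FPKM in KO and WT, with overlapping ranges. Mir872 rose to 54.4, 89.4 and 25.1 FPKM in KO from 0 in WT, and its host Ift74, a ciliary transport gene, stood at 3.35 ± 0.439 and 2.73 ± 0.588. Mir7674 rose to 639, 167 and 97.5, with KO library 1 far above the others, while its host Nup214, a nuclear pore gene, stood at 59.5 ± 14.1 and 53.9 ± 14.0 and was highest in library 1 of both genotypes. These hosts, and those named with the genes that follow, were chosen for their position.

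The hosts of the other 3 microRNAs lay modestly higher in KO themselves, without overlap and without passing. Mir339 rose from 0 in WT to 25.1, 68.3 and 34.6 FPKM in KO, and its host 3110082I17Rik stood at 13.2 ± 1.73 and 9.20 ± 2.23. Mir7082 rose from 0 to 16.3, 12.4 and 29.1, and its host Raver1, an RNA-binding protein gene, stood at 32.2 ± 2.69 and 22.05 ± 2.11. Mir8094 rose from values near 0 in WT to 20.2, 26.2 and 38.3, and its host Ddx39b, an RNA helicase gene of message export, stood at 119.8 ± 8.19 and 94.7 ± 4.40. Gm23424, a predicted microRNA gene, fell to 0 in KO from 7.21, 7.76 and 8.87 FPKM in WT.

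Of the small nucleolar and nuclear RNA genes, 3 rose and 1 fell. Snord107 (chr7:59980876-59980945, minus strand) fell from 54.7, 56.1 and 59.2 FPKM in WT to 0 in all KO libraries (difference −5.85, SE 0.16, limma adjusted p = 2.78e-04), while the longer gene around it, Gm38393, stood at 2.71 ± 0.513 and 2.61 ± 2.10 FPKM in KO and WT. Gm25108 rose from 0 in WT to 67.8, 53.3 and 62.4 inside Casp2, which stood at 7.19 ± 1.99 and 6.26 ± 0.642. Gm24468 rose to 46.9, 60.3 and 34.0 opposite Jak1 (53.6 ± 5.51 and 50.8 ± 2.30), and Gm23202 to 31.0, 21.1 and 35.6 inside Rpl21 (250.4 ± 20.6 and 231 ± 59.1). All 3 longer genes overlapped between genotypes. Counts of reads in such short genes can move with how reads are assigned between a gene and its host, and the part of that assignment was not tested. The calls of Gm25108, Mir1956, Snord107, Gm24468, Gm23202 and Mir8094 held with any 1 library left out. Those of Mir872, Mir7082, Gm23424 and Mir7674 were each lost in 4 of 6 such fits (adjusted p up to 0.0953, 0.0849, 0.0849 and 0.125), and that of Mir339 in 3 (up to 0.0782), the losses including every WT library in all 5.

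Among protein-coding genes 479 were higher (4.13%) and 383 lower (3.30%) at an unadjusted p under 0.05, and 1082 lay wholly above (9.32%) and 854 wholly below WT (7.36%). The balance varied with level. Of the 593 protein-coding genes with a mean of at least 100 FPKM, 48 were lower and 16 higher at an unadjusted p under 0.05. Of the 4594 between 5 and 20 FPKM, 139 were lower and 229 higher. The order among the most abundant genes depended on scaling, since quantile normalisation gave 28 lower and 43 higher, and rescaling to an equal protein-coding sum gave 34 lower and 32 higher. With Xist as a covariate there were 79 lower and 78 higher, without KO library 2 there were 19 lower and 4 higher, and without WT library 1 there were 64 lower and 49 higher. Protein-coding genes of the X chromosome had 22 lower and 6 higher of 370, where both WT libraries rich in Xist enter the comparison.

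Markers of other cell types also varied between the libraries, and none of their genes passed over all genes. Border macrophage markers summed to 784 to 893 FPKM in KO and 866 to 1793 in WT, where library 1 was the highest, and 1 of 11 tested was lower and 0 higher (median −0.60), with 3 wholly below WT. The lower gene, Folr2, a folate receptor of resident macrophages, stood at 3.02, 2.95 and 1.43 FPKM in the KO libraries and 12.6, 6.66 and 3.75 in the WT libraries. Monocyte markers summed to 19.2 to 33.6 in KO and 25.9 to 71.7 in WT, and neutrophil markers to 62.1 to 127 in KO and 140.0 to 276 in WT, with Ly6g listed at 0 in all 6 libraries. For monocytes 2 of 7 were lower, Ccr2 at 1.05, 0.578 and 0.311 FPKM in the KO libraries and 4.30, 1.68 and 2.49 in the WT libraries and Cd44 at 3.96 ± 1.28 FPKM in KO and 9.80 ± 5.19 in WT (SD, n = 3 each). For neutrophils 2 of 9 were lower, with S100a8 at 54.5, 26.1 and 28.9 FPKM in the KO libraries and 118, 72.3 and 124 in the WT libraries and Retnlg at 3.54 ± 1.94 FPKM in KO and 12.5 ± 5.15 in WT (SD, n = 3 each). The most abundant border macrophage marker was Stab1, at 534, 472 and 449 FPKM in the KO libraries and 1082, 587 and 621 in the WT libraries, beside a summed level of microglia markers of 8331 FPKM in WT library 1. The part of these cells in the lower NF-kB target genes was not tested.

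Oligodendrocyte markers summed to 1891 to 3030 FPKM in KO and 1215 to 2095 in WT, and 8 of 14 tested were higher and 0 lower. Cldn11, a tight junction gene of myelin, stood at 14.2, 29.0 and 22.2 FPKM in the KO libraries and 9.25, 9.79 and 9.43 in the WT libraries and Mal, a myelin proteolipid gene, at 27.1, 49.6 and 27.9 FPKM in the KO libraries and 17.3, 13.9 and 7.503 in the WT libraries. Neither overlapped between genotypes. Astrocyte markers overlapped in their sums (70.5 to 119 in KO, 72.5 to 104 in WT). WT library 1 held the highest sums for oligodendrocyte precursors (201), neurons (66.6), endothelial and mural cells (36.8), fibroblasts (33.1) and erythroid cells (34.2). Of the 4 neuron markers tested, 1 was lower and 1 higher. Snap25, a synaptic vesicle fusion gene, lay lower in KO and was highest in WT library 1, at 0.864, 2.49 and 3.32 FPKM in the KO libraries and 26.4, 7.68 and 9.49 in the WT libraries. Elavl4, a neuronal RNA-binding protein gene, lay higher in KO, at 15.2, 8.90 and 9.97 FPKM in the KO libraries and 7.22, 2.69 and 6.15 in the WT libraries, and neither gene overlapped between genotypes. With Xist as a covariate the median of the border macrophage markers was 0.22 and of the monocyte markers 0.29, while that of the neutrophil markers was −0.84 and of the oligodendrocyte markers 1.18. Without WT library 1 the medians were −0.32, −0.07, −0.77 and 0.87, in that order.

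**Figure D5:**
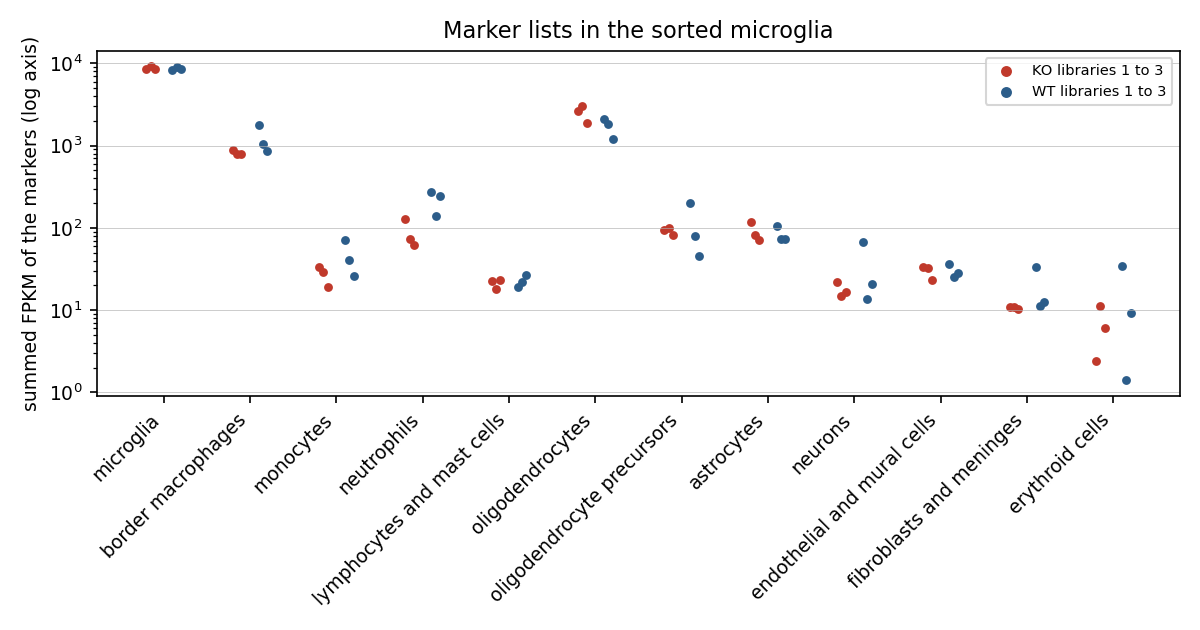
Summed FPKM (log axis) of the markers of each cell type in every KO library (red points) and WT library (blue points) of the CD11b-sorted cells. The sum of the microglia markers is even across the 6 libraries, although 2 of the 12 markers lay wholly above and 3 wholly below WT. WT library 1 (the leftmost blue point) is highest for border macrophages, monocytes, neutrophils, oligodendrocyte precursors, neurons, endothelial and mural cells, fibroblasts and erythroid cells.

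The effect of genotype in microglia was also set against that in astrocytes, in one model over the 13 libraries that included postnatal day. Of 16258 genes tested, 23 passed (0.141%), 14 with a higher (0.0861%) and 9 with a lower effect in microglia (0.0554%). They were 19 small RNA genes, the protein-coding genes Filip1l and Il33 and 2 others, and 10 of the 23 were also among the 13 called in microglia alone. The count was 75, 45 and 35 without KO microglia libraries 1, 2 and 3, and 60, 57 and 46 without WT microglia libraries 1, 2 and 3. It was 15 without WT astrocyte library 2 and 16 to 20 without any other astrocyte library.

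The authors' deposited table of microglia, made from these same libraries with another test, lists 483 genes, of which 277 are lower and 206 higher in KO. Of those, 413 were among the 15890 genes tested here, 2.60% of the genes tested, and 363 of the 413 did not overlap between genotypes. Within the gene lists used above, the authors' deposited table holds 27 entries that are lower and 7 that are higher in KO. Of the 13 genes called here it holds 1, Nfkbia. Among the genes it ranks highest on the higher side are Atg9a and Zfp574, a zinc finger gene that stood at 5.73, 6.47 and 6.57 FPKM in the KO libraries and 2.11, 2.99 and 2.84 in the WT libraries here, and Gm15564, an antisense transcript over Parp9 and Kpna1 that stood at 1917 ± 126 FPKM in KO and 965 ± 99.6 in WT (SD, n = 3 each). Gm4297, an X-linked gene that it ranks among the lower, stood at 0.124, 0.125 and 0.104 FPKM in the KO libraries and 2.94, 1.05 and 5.31 in the WT libraries.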

How the data were processed

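RNA of CD11b-sorted cells was amplified and sequenced after TRIZOL extraction, DNase treatment and column cleaning, per the labels' protocols. FPKM values per gene were made and deposited by the authors for all 13 libraries, on GRCm38; the submitters' processing notes name, with no role given, Cuffnorm and Cufflinks, Bowtie2 2.2.3 with TopHat2 2.0.11, DESeq2, HTSeq 0.6.1p1 and FastQC. Whether counting used strand is not given in the sources used here, so overlapping genes are uncertain. The authors' deposited comparison of microglia holds mean normalised counts (a signal), log2 fold changes, a test score and p-values, per the file headers, and was used only to describe which genes it lists.

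The main test was limma 3.58.1 in R 4.3.3 (linear models with trended empirical Bayes, two-sided) on log2(FPKM + 1), over genes with a mean of at least 1 FPKM in the 6 microglia libraries plus Il33. The threshold was a Benjamini-Hochberg adjusted p under 0.05 over all genes tested. For low genes, this scale makes fold changes too small. The interaction with cell type was fitted over all 13 libraries with postnatal day as a covariate. Absolute depth is unknown, so no counting intervals are given. The code was tested on simulated data.

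The GENCODE annotation held 37691 (96.2%) of the identifiers. Genes were named by a rule: Il33, Il1rl1, Il1rap and Nfkbia, all called genes, the protein-coding genes with the smallest p in each direction, the members of each list with the smallest p, and the leading genes of the interaction and of the authors' deposited table. The members and lists were chosen with earlier results of these data known. The alternatives were another pseudocount, other filters, scalings and variance models, a replicate block, an Xist covariate and leaving out each library. Counts of list members and of genes by level under such alternatives were added after seeing the data.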

Additional observations from a re-analysis of the deposited data

Results flagged for a closer look

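The effect of the Il33 knockout differed between microglia and astrocytes, by the interaction term in limma at an adjusted p under 0.05, in 12 of the named genes. In microglia, 10 of the 12 were listed at 0 throughout one genotype. The effect in microglia minus that in astrocytes, on the log2(FPKM + 1) scale, was 5.95 for Gm25108, 7.76 for Mir1956, 5.55 for Gm24468 and 4.89 for Gm23202. It was 5.33 for Mir339, 5.67 for Mir872 and 7.78 for Mir7674. It was −5.85 for Snord107, −3.16 for Gm23424 and −4.44 for Filip1l. For Mir1956 the difference in microglia alone was 6.15, and WT astrocyte library 3 held 42.9 FPKM while the other astrocyte libraries were listed at 0.

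Il33 itself gave 5.10, since it was near 0 in microglia of both genotypes and was expressed in WT astrocytes. The identifier ENSMUSG00000080661, which was not found in the annotation used here, gave −7.46. Its microglia values were 103, 22.1 and 36.4 FPKM in KO and 143, 131 and 217 in WT, which did not overlap. The difference in microglia alone was −1.84 (SE 0.57, limma adjusted p = 0.553). In astrocytes this identifier stood at 45.4, 117, 31.0 and 25.5 FPKM in KO and at 0 in every WT library, so much of the −7.46 came from astrocytes.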

How the results depend on the processing

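With 3 libraries a genotype and unknown absolute depth, small differences in low genes were not detectable, and values of genes listed at 0 depend on the pseudocount. The 13 calls became 258 with Xist as a covariate (50 instead of 2 among protein-coding genes), 47 (10) in a fit of all 13 libraries, 7 (1) with no filter, 25 with a pseudocount of 0.1 and 2 with small RNA genes left out. With 1 library left out there were 18 to 48 calls, 1 to 4 of them protein-coding, and the cause was not tested. With the replicate block there were 3 calls and 0 among protein-coding genes (limma; 963 of all genes at an unadjusted p under 0.05), and 10 named genes lost the threshold. After the genotype mean of each gene was subtracted, same-numbered KO and WT libraries correlated at only 0.0276, 0.00986 and 0.0227. Each correlated best with its own number, but these values were small, so the numbers are not taken as pairs. The interaction count of 23 became 13 with a mean of at least 5 FPKM, 37 with no filter, 4 with small RNA genes left out and 15 to 75 with 1 library left out. All 121 named genes kept their direction and their side of the threshold under quantile normalisation, rescaling, a pseudocount of 0.1, and empirical Bayes without a trend or made robust. Directions reversed with Xist as a covariate for Col1a1 (0.11), Slc1a2 (−0.087), C1ql1 (0.65), Cd4 (0.060) and Il1rl1 (0.39). With 1 library left out, Cd4 ran from −0.43 to 0.028 (highest without KO library 2), Hba-a1 from −0.92 to 0.056 (without KO library 1), Hbb-bs from −1.44 to 0.48 (without WT library 1) and Il1rl1 from −0.45 to 0.41 (without KO library 3; 0.12 without WT library 2). None of these genes had passed the threshold.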
